A study of Mus musculus with 24 samples.

Results

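The 3 livers of the Ctrl group were set against the 9 Ctrl libraries of inguinal white adipose tissue (iWAT), gastrocnemius muscle (GM) and hypothalamus, to describe which transcripts made up the baseline liver and which were scarce in it. The members were the 3 Ctrl liver libraries, chosen by their label, of 24 libraries in the series. Bulk RNA-seq was done on 4 tissues from control mice and from mice whose hepatocytes lack *Crif1*, a gene needed for the translation of mitochondrially encoded subunits of the respiratory chain. The mice without hepatic *Crif1* were not used here. All Ctrl mice were C57BL/6 animals of genotype Crif1flox/flox labelled as 8 weeks old, with no Cre transgene in their label. They are therefore floxed controls and not wild-type mice. It is not stated if tissues with the same replicate number came from 1 mouse, nor whether animals were pooled, so that the p-values measure the spread between these libraries.

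Hepatocytes make most of the proteins of blood plasma, turn amino-acid nitrogen into urea, release glucose and ketone bodies for other organs, make bile acids and modify foreign compounds. They are known for several enzymes of their own, which replace forms used in most other cells, and for a set of transcription factors, among them HNF4, FOXA and C/EBP proteins, that act together on hepatocyte genes. Adipose tissue, muscle and brain supply the contrast: they store or burn the fuels that liver exports.

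The authors deposited gene levels as FPKM, fragments scaled to transcript length and library size, which can be compared between genes of different length. Depth, inferred from coverage, was 5.42 to 8.09 gigabases in the livers and 4.47 to 8.09 over the 12 libraries. Of 24532 genes listed, 15320 reached 1 FPKM in at least 3 of the 12 libraries and were tested with limma on log2(FPKM + 1). A gene was called at a difference of at least 2 on that scale (4-fold) with an adjusted p under 0.05. Across genes, which are not independent replicates, the livers correlated at 0.995 to 0.996 (Pearson) with each other, at 0.706 to 0.723 with iWAT, at 0.631 to 0.668 with GM and at 0.535 to 0.562 with hypothalamus. *Crif1* itself, listed as *Gadd45gip1*, stood at 14.6, 12.5 and 13.6 FPKM in the livers, near the means of 13.6 in iWAT and 14.1 in GM and below 26.3 in hypothalamus. Its place against iWAT and hypothalamus depends on scaling, as described below.

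Hepatocyte identity matched the label: the 6 hepatocyte markers *Alb*, *Apoa1*, *Fgb*, *Serpina1c*, *Hnf4a* and *Cps1* summed to 55423, 58746 and 55649 FPKM in the livers and were all called higher there than in each other tissue. The 5 Kupffer cell markers summed to 93.4 to 97.5 FPKM and those of the sinusoidal endothelium to 91.0 to 97.7, and each of these markers reached 1 FPKM in all 3 livers. In iWAT the sinusoidal list summed to 58.6, 126 and 116.9 FPKM, nearly all of it *Fcgr2b* and *Lyve1*, and 2 of its 5 members, *Clec4g* and *Oit3*, were liver-enriched. Stellate cell markers summed to 76.2 to 82.5 FPKM, with 4 or 5 of 5 at 1 FPKM, but the same list summed higher in iWAT (168.5 to 284.4), where 2 or 3 were at 1 FPKM, and *Ecm1* made up most of either sum. Cholangiocyte markers summed to 30.7 to 31.8 FPKM in liver, nearly all of it *Spp1*, with 1 or 2 of 5 at 1 FPKM, below the 40.8 to 56.6 of hypothalamus. Adipocyte markers summed to at most 3.62 FPKM, muscle fibre markers to 13.8 and neuron markers to 3.38 in any liver.

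In bulk tissue a change in the number of cells of a type cannot be told apart from a change in RNA per cell, which holds for every difference between tissues given here. Markers of one tissue were also found at lower level in libraries of another: adipocyte markers summed to 70.3 to 399.9 FPKM in GM and muscle fibre markers to 55.6 to 523.8 in iWAT. In GM Ctrl 1, 2 and 3 the hepatocyte markers summed to 241.7, 18.4 and 185.6 FPKM, in hypothalamus Ctrl 3 to 25.6 against 0.888 and 1.09 in the other two, and in iWAT to 15.9 to 27.3. Gene counts, the shifts of list medians and the differences of *Alb* and *Ttr* are given with and without GM Ctrl 1, GM Ctrl 3 and hypothalamus Ctrl 3.

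The liver transcriptome was concentrated in few genes. The 10 highest genes of each library held 23.0%, 24.3% and 24.5% of the summed FPKM of the livers (23.9% ± 0.808, SD, n = 3), compared with 17.0% ± 0.778 in iWAT, 34.4% ± 0.901 in GM and 4.37% ± 0.581 in hypothalamus. No liver overlapped with a library of another tissue in this share, and each comparison gave p = 0.1 in an exact two-sided permutation test, the smallest that 3 against 3 allow. Fewer genes reached 1 FPKM in liver (10241 to 10293) than in iWAT (12024 to 12303), GM (10744 to 11036) or hypothalamus (13768 to 13814), again without overlap (exact permutation p = 0.1 for each).

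**Figure D1:**
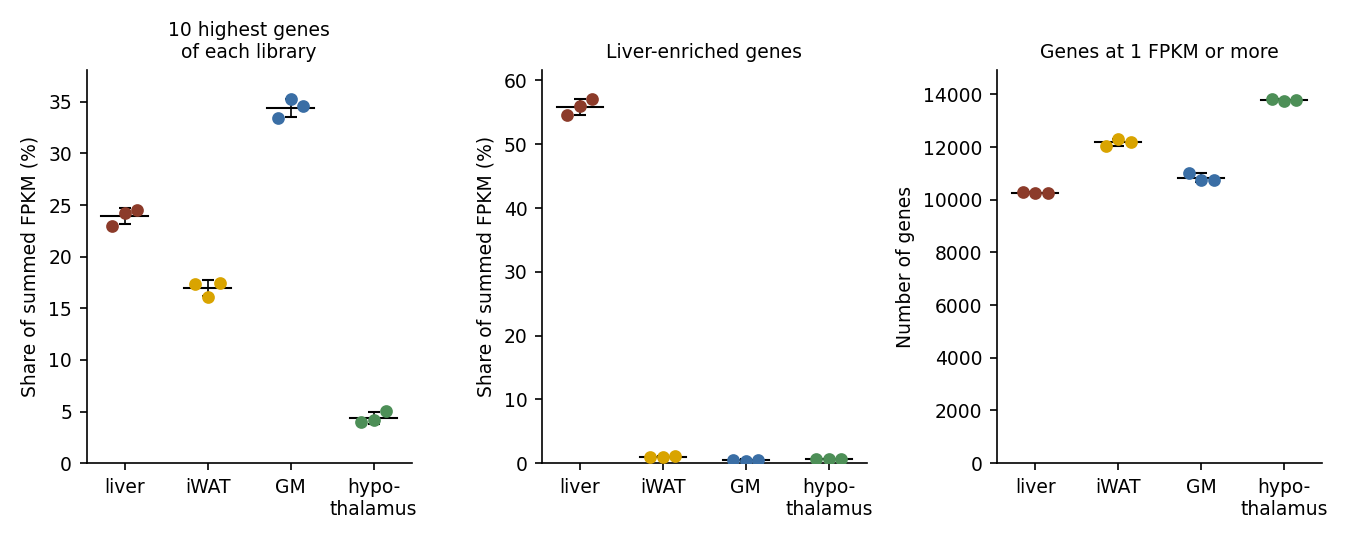
Share of the summed FPKM held by the 10 highest genes of each library (left) and by the 655 liver-enriched genes (middle), and number of genes at 1 FPKM or more (right), with 1 point per Ctrl library and the mean and SD of 3 as lines. The livers lie between iWAT and GM in the first panel, stand alone in the second because the genes were chosen in them, and are lowest in the third.

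*Alb*, which encodes albumin, the main carrier protein of plasma, was the highest gene at 39800, 42770 and 39763 FPKM, or 7.24% to 7.95% of the summed FPKM of a liver. *Apoe*, a ligand for the uptake of lipoproteins, followed at 15371, 14725 and 14130 FPKM. The other eight of the 10 highest genes by mean encode the protease inhibitors *Serpina1e* (12536 FPKM) and *Serpina3k* (8766 FPKM), the apolipoproteins *Apoa2* (10693 FPKM) and *Apoa1* (7129 FPKM), and major urinary proteins or a predicted relative, *Mup3* (10052 FPKM), *Mup20* (8926 FPKM), *Mup7* (8464 FPKM) and *Gm2083* (8363 FPKM). All 10 are secreted proteins or named as their relatives. *Serpina1* and *Mup* genes are close copies of each other, so the split of reads among them is uncertain.

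Counts of differences were unequal. Liver was higher than iWAT for 837 genes, 5.46% of those tested, and lower for 1799 (11.7%). It was higher than GM for 1355 genes (8.84%) and lower for 1232 (8.04%), and higher than hypothalamus for 1050 genes (6.85%) and lower for 3727 (24.3%). The median gene differed by -0.61 in liver minus iWAT on the log2 scale, -0.10 against GM and -0.98 against hypothalamus, so that these splits depended on scaling. After median-ratio scaling, which brings those medians to between -0.10 and -0.01, the higher genes made up 51.8% of calls against iWAT in place of 31.8%, 54.6% against GM in place of 52.4%, and 41.3% against hypothalamus in place of 22%. With the deposited TPM values the shares moved the other way, to 24.6% against iWAT, 46.5% against GM, where lower genes (1659) then outnumbered higher ones (1444), and 14% against hypothalamus. Median-ratio scaling divided levels by size factors of 0.6549 to 0.6761 in the livers and 1.247 to 1.301 in iWAT. The factors were 0.7039 to 0.7696 in GM and 1.465 to 1.485 in hypothalamus. Differences of single genes are given on FPKM as deposited. Small ones against iWAT or hypothalamus can therefore change direction with scaling.

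Genes that were higher in liver than in each of the other 3 tissues are called liver-enriched below: 655 genes, 4.28% of those tested. Genes lower than in each are called liver-poor: 255 genes, 1.66%. That number was 114 with quantile normalization, 152 with median-ratio scaling, 537 with TPM and 1023 with a pseudocount of 0.1. The liver-enriched genes held 54.6%, 55.99% and 57.04% of the summed FPKM of the livers and at most 1.19% of any other library. They reached a median of 75.3 FPKM in liver, 287 of them had a mean of at least 100 FPKM and 54 one of at least 1000, of 66 genes with such a mean. In 653 of the 655 the lowest liver lay above all 9 other libraries. The liver-poor genes had a median of 0.767 FPKM in liver, where 6 were listed at 0 in all 3 libraries, and in each of the 255 the highest liver lay below all 9 others. Both sets were chosen from these same libraries, so their shares and the lack of overlap follow largely from that choice.

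The limit was crossed closely by *Gstm1*, *Clec1b* and *Ceacam2*, whose smallest difference was 2.003, 2.005 and 2.008, while *Acaa2* at 1.999 and *Creg1* at 1.987 stayed just outside. On the other side *Plcb4*, *Car4* and *Serpinb6a* passed at -2.01 to -2.02, and *Adgrg1* at -1.999, *Pik3ip1* at -1.997 and *Dagla* at -1.996 did not. The median of the smallest of the 3 differences was 4.31 over the liver-enriched genes and -2.51 over the liver-poor genes. Of the 655, 192 had a smallest difference of at least 6, and of the 255 liver-poor genes 21 had one of at least 4 in size.

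**Figure D2:**
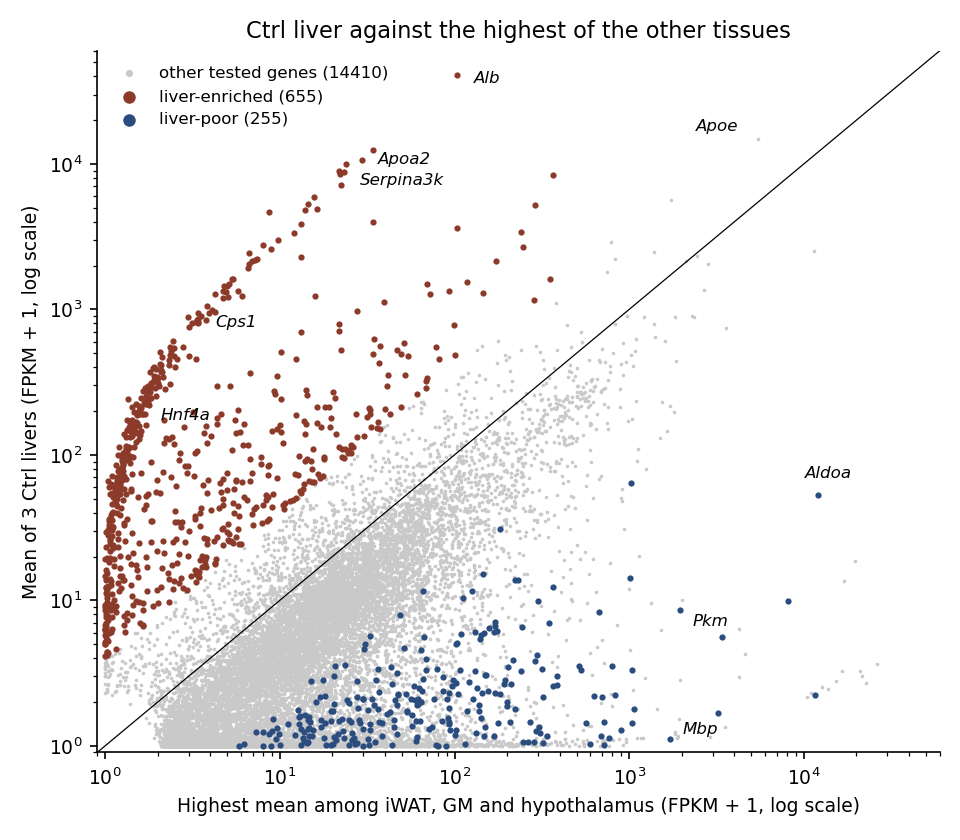
Mean of the 3 Ctrl livers against the highest of the 3 other tissue means, both as FPKM + 1 on log axes, with 1 point per tested gene and the line of equality. The liver-enriched genes lie above the line and include *Alb* at the top, *Apoe* lies close to the line, and the liver-poor genes lie along the bottom, with *Aldoa* far to the right.

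Upstream sequence is shown for the most abundant liver-enriched gene with a single RefSeq start in each of 6 gene families, as the 150 bases before that start (GRCm38.p6, the mm10 assembly), read 5′ to 3′ on the strand of the gene. These are genes whose transcripts filled the liver libraries, so that a reader can set their proximal promoters side by side. The short motifs searched on both strands were CAAAGTCCA (HNF4) and TTGCNNAA (C/EBP). The FOXA letters TGTTTAC were searched in the same way. The letters of the TATA box were TATAAA. Matches are in capitals, and none of them overlapped.
Alb (chr5:90460720-90460869, plus strand): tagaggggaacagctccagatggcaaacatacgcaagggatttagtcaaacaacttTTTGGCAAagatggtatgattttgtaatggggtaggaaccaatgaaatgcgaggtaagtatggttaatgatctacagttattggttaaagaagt
Serpina1e (chr12:103956898-103957047, minus strand): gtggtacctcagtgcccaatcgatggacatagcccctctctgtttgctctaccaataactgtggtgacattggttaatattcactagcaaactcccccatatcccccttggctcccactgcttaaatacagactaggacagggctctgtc
Mup3 (chr4:62087318-62087467, minus strand): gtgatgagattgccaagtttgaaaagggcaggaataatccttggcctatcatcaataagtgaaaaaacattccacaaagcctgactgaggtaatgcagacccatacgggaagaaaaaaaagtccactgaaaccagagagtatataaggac
Apoa1 (chr9:46228480-46228629, plus strand): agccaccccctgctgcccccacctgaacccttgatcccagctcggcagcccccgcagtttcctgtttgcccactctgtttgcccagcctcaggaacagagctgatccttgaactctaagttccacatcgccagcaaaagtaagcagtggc
Fabp1 (chr6:71199729-71199878, plus strand): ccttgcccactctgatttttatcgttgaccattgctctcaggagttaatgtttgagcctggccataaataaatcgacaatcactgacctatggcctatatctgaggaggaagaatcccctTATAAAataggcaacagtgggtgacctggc
Ahsg (chr16:22891865-22892014, plus strand): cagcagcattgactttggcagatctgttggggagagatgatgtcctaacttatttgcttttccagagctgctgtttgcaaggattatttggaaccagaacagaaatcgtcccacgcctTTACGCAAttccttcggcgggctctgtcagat

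In *Alb* the C/EBP letters began 94 bases before the start, on the opposite strand. *Fabp1*, which encodes the liver fatty acid binding protein, held a TATA box from base 30 before its start. *Ahsg*, which encodes the plasma glycoprotein fetuin-A, held C/EBP letters from base 32 before the start on the opposite strand. The sequences of *Serpina1e*, *Mup3* and *Apoa1* held none of these letters in the window, which says nothing about binding of the factors. Over all 32851 windows of the RefSeq table, from 250 bases before to 50 after a start, 0.475% held the HNF4 letters, 3.65% the FOXA letters, 10.8% the C/EBP letters and 13.6% the TATA box. Promoters were matched for 510 of the 655 liver-enriched genes, under 80% of them, so a comparison of their motif shares with those of all promoters was void and is not given.

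Position was shared as well. Of 652 liver-enriched genes with a place, 256 (39.3%) had another liver-enriched gene directly before or after them among the tested genes of the chromosome. Of all placed genes, 7.77% had a liver-enriched gene beside them. Among the 655 liver-enriched genes, 260 stayed under 1 FPKM in all 9 other libraries and so entered the test through the livers alone. The part of this filter in the share of 39.3% was not tested. The longest run held 11 genes, *Mup6* to *Mup14* at chr4:60003549-61303998. Runs of 10 were the *Serpina* genes at chr12:103616675-104086920, from *Serpina10* to the pseudogene *Serpina4-ps1*, and the *Cyp2c* genes at chr19:39287085-40187286. *Cyp2d* genes made a run of 9 at chr15:82370527-82794245. Shorter runs joined genes of related function, with *Apoa1*, *Apoc3*, *Apoa4* and *Apoa5* at chr9:46228630-46271921 and *Ahsg*, *Fetub*, *Hrg*, *Kng2* and *Kng1* at chr16:22892015-23082078. Within the *Mup*, *Serpina1*, *Cyp2c* and *Cyp2d* runs many members are near copies, and how reads were shared among them was not tested.

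Plasma proteins were mostly enriched. Of 25 tested carrier and transport proteins 20 were liver-enriched, as were 14 of 18 protease inhibitors, 21 of 22 coagulation and fibrinolysis factors and 13 of 20 complement components. Over all tested genes 4.28% were liver-enriched and 1.66% liver-poor, and none of these lists had a liver-poor member. Their median differences from iWAT, GM and hypothalamus were 7.64, 7.41 and 7.64 for carriers, 9.22, 7.88 and 9.07 for protease inhibitors, 6.65, 6.53 and 6.85 for coagulation factors and 5.34, 6.48 and 7.06 for complement, against -0.61, -0.10 and -0.98 over all genes tested. Without GM Ctrl 1, GM Ctrl 3 and hypothalamus Ctrl 3 the medians against GM were 8.07 for carriers and 8.97 for protease inhibitors.

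*Alb* stood at 23.8, 13.1 and 12.8 FPKM in iWAT, at 167.5, 13.7 and 124.9 in GM and at 0.0657, 0.301 and 10.98 in hypothalamus. The livers were thus far above each library, by 11.23 ± 0.960 (SE) against iWAT, 9.23 against GM and 13.96 against hypothalamus on the log2 scale (adjusted p at most 2.91e-06, limma). The SE is wide, since *Alb* varied among the libraries of GM and of hypothalamus and little among the livers. The difference from GM was 9.89 without GM Ctrl 1 and 8.13 without GM Ctrl 2, and that from hypothalamus was 13.33 without hypothalamus Ctrl 1 and 15.08 without hypothalamus Ctrl 3. Without GM Ctrl 1, GM Ctrl 3 and hypothalamus Ctrl 3 together, *Alb* differed by 11.44 from GM and by 15.08 from hypothalamus, so that iWAT was then the nearest tissue. *Ttr*, the carrier of thyroxine and of the retinol carrier, reached 4293, 3655 and 3705 FPKM in liver, at most 0.0358 in iWAT, 20.8, 1.31 and 14.7 in GM, and 3.06, 3.40 and 5.50 in hypothalamus. Its differences were 11.90, 8.71 and 9.63 (SE 0.622, adjusted p at most 8.87e-08, limma). The difference of *Ttr* from GM was 9.33 without GM Ctrl 1, 7.71 without GM Ctrl 2 and 10.71 without GM Ctrl 1, GM Ctrl 3 and hypothalamus Ctrl 3, when that from hypothalamus was 9.84.

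Fibrinogen, the clot-forming protein, is made of 3 chains. *Fgb* stood at 2540, 2973 and 2852 FPKM in liver, *Fga* at 1268, 1582 and 1498, and *Fgg* at 1805, 2292 and 2073, each lowest in Ctrl 1 and highest in Ctrl 2. *Fga* and *Fgg* were listed at 0 in every iWAT library. *F2*, prothrombin, reached 826.1, 881.8 and 816 FPKM in liver, was listed at 0 in all 3 iWAT libraries and stood at 4.27, 0.503 and 3.50 in GM. The only coagulation gene that was not enriched was *Pros1*, protein S, a cofactor that restrains clotting. It stood at 14.8, 15.3 and 16.1 FPKM in liver and at 22.0, 33.4 and 29.7 in iWAT, a difference of -0.82 ± 0.124 (adjusted p = 6.12e-05, limma). The direction of this difference depends on scaling.

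Some plasma proteins were also abundant in iWAT. *Hp*, haptoglobin, which binds free haemoglobin, stood at 2047, 2067 and 2077 FPKM in liver and at 2428, 2821 and 3234 in iWAT, which all lay higher. The difference of -0.44 ± 0.324 did not pass (adjusted p = 0.23, limma), and GM held 29.5, 34.2 and 23.1 FPKM. *Serping1*, the inhibitor of the first complement component, stood at 409.9 to 428.7 FPKM in liver and at 364 to 517.4 in iWAT, which overlap. *C4b*, a central complement component, was lower in liver (318.6 to 338.6 FPKM) than in iWAT (469.6 to 680), by -0.87 ± 0.151 (adjusted p = 0.000205, limma). That direction holds for FPKM as deposited and depends on scaling. *C3* was higher in liver, at 1565 to 1939 against 638.7 to 848.8 FPKM. The terminal components *C9* (368.3, 396 and 412.4 FPKM in liver) and *Hc*, which is complement C5 (189.1, 200.5 and 211.8), reached at most 0.0680 FPKM in iWAT. Of the 7 complement genes that were not liver-enriched, all but *Cfp*, properdin, were shared with iWAT.

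Lipoprotein genes were mostly enriched. Of 20 tested, 17 were liver-enriched, against 4.28% of all tested genes, with median differences of 6.45, 7.23 and 7.67. *Apob*, the scaffold of very low density lipoprotein, stood at 304.1, 329.8 and 302.9 FPKM in liver and at no more than 1.42 in any other library. *Apoa1*, the main protein of high density lipoprotein, reached 7145, 7137 and 7105 FPKM in liver, with an SD of 21.2, and 33.6, 2.25 and 28.1 in GM. *Apoc1*, which slows lipoprotein uptake, was enriched although iWAT held 252 to 339.6 FPKM, since the livers held 4884 to 5597. *Apoe* was not called: liver exceeded iWAT by 1.43 ± 0.165, hypothalamus by 2.82 and GM by 6.76. *Abca1*, which exports cholesterol from cells, was also outside the call.

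Of the genes of nitrogen and amino-acid metabolism 31 of 37 tested were liver-enriched, against 4.28% of all tested genes. The median differences of this list were 7.07, 6.72 and 6.63. *Cps1*, the enzyme that starts the urea cycle, stood at 802.8, 863.9 and 901 FPKM in liver and at no more than 4.21 in any other library. *Otc*, its next step, stood at 192.1, 197.4 and 197.3 FPKM and was listed at 0 in all iWAT libraries. *Asl* was enriched with a smaller margin, at 199.7 to 220.4 FPKM in liver and 14.7 to 20.5 in iWAT and hypothalamus.

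*Ass1*, the step between *Otc* and *Asl*, was listed at only 0.782, 0.626 and 0.677 FPKM in liver. *Gm5424*, a predicted gene listed over almost the same span and the same strand (chr2:31470308-31520629, within *Ass1* at chr2:31470270-31520670, mm10), held 1472, 1324 and 1695 FPKM there. Their sum was 1473, 1325 and 1696 FPKM in liver, 2.06 to 3.09 in iWAT, 1.47 to 8.95 in GM and 66.7 to 74.5 in hypothalamus. *Gm5424* was called liver-enriched and *Ass1* was not, and which of these listings the reads belong to cannot be told apart from these values.

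Other members lay outside the call. *Got1*, an aspartate aminotransferase, stood at 67.8, 84.2 and 102.6 FPKM in liver, at 5.30 to 8.09 in iWAT and at 152 to 174.6 in GM and 152.5 to 178.2 in hypothalamus, so the livers lay between. *Fah* and *Gstz1*, steps of tyrosine breakdown, were at 110.5 and 460.9 FPKM in iWAT against 339.8 and 372.1 in liver. The tyrosine enzymes upstream of them, *Tat* (911.5, 933.7 and 1136 FPKM in liver) and *Hpd* (1422, 1230 and 1305), were enriched, with at most 6.39 FPKM in any other library.

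For glucose, 9 of 16 tested genes were liver-enriched, against 4.28% of all tested genes, with median differences of 3.39, 5.79 and 5.44. *G6pc*, which completes the release of free glucose, stood at 263.4, 235.1 and 237.1 FPKM in liver and at no more than 1.24 elsewhere. *Fbp1*, an earlier step of gluconeogenesis, stood at 478.2, 455.5 and 415.2 FPKM. *Pck1*, which commits carbon to gluconeogenesis in liver and to glycerol synthesis in fat, was not enriched: it stood at 605.3, 938.7 and 1100 FPKM in liver and at 1375, 786.3 and 1467 in iWAT. The tissues overlapped, with a difference of -0.45 ± 0.295 (adjusted p = 0.185, limma), and GM (6.99 to 12.8 FPKM) and hypothalamus (0.0518 to 0.508) lay far below. *Pcx*, pyruvate carboxylase, was lower in liver (120.9 to 137.1 FPKM) than in iWAT (386.6 to 585.5), by -1.83 ± 0.131 (adjusted p = 8.31e-08, limma).

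Several enzymes and transporters come as a hepatic gene and a counterpart used elsewhere, and their levels were read as a ratio within each library. *Pklr*, liver pyruvate kinase, stood at 81.0, 87.3 and 60.7 FPKM in liver, and *Pkm*, the form of most other tissues, at 8.22, 6.91 and 7.69. In GM *Pkm* stood at 1942, 1880 and 2008 FPKM and *Pklr* at 0.507, 0 and 0.164. The ratio within a library, on the log2 scale of FPKM + 1, was 3.16 ± 0.326 (SD, n = 3) for the livers, against -7.94 for iWAT, -10.65 for GM and -9.08 for hypothalamus.

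*Slc2a2*, the low-affinity glucose transporter of hepatocytes, stood at 76.4, 62.7 and 52.7 FPKM in liver, where *Slc2a4*, the insulin-responsive one, was at most 0.0913 FPKM. In liver all 6 pairs shown gave a ratio above 0, from 3.16 to 12.49, and elsewhere only *Pygl* against *Pygm* did so, in iWAT (4.01). The pairs were chosen as hepatic and other forms with earlier results of these data known, so this count is a description and not a test. The widest ratio in liver was that of *Fabp1* against *Fabp3*, the fatty acid binding protein of muscle and heart.

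**Figure D3:**
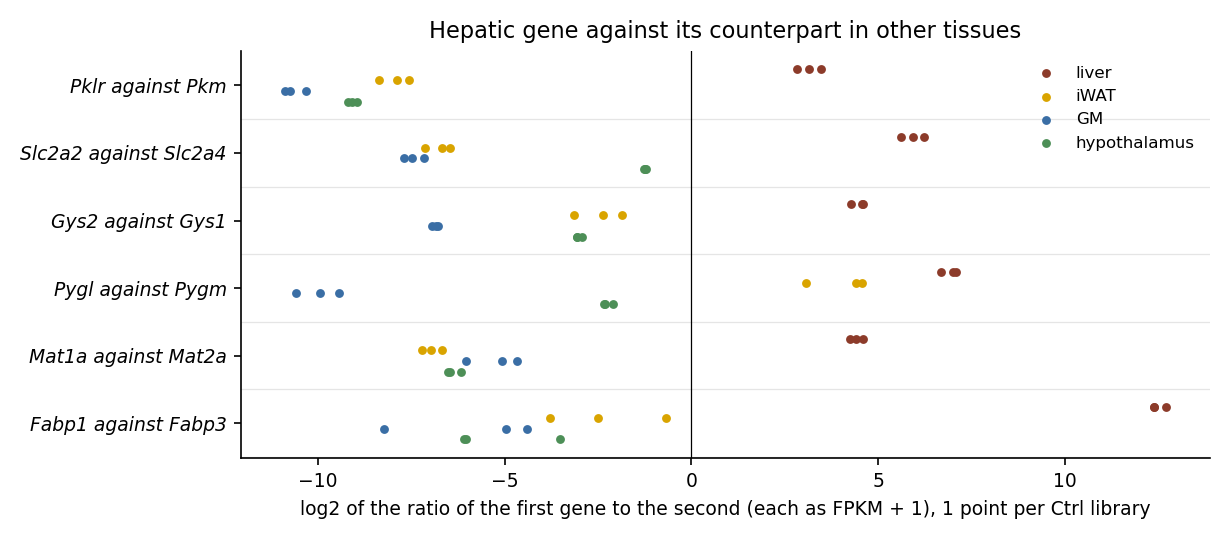
Ratio of a hepatic gene to its counterpart within each Ctrl library, as log2 of (FPKM + 1) over (FPKM + 1), with 1 point per library and 6 pairs as rows. The livers lie right of 0 in every pair, and the other tissues lie left of it except iWAT for *Pygl* against *Pygm*.

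Ketone bodies are made in liver and used elsewhere. *Oxct1*, needed for the use of ketone bodies, stood at 1.23, 1.06 and 1.04 FPKM in liver and at 62.1 to 134.6 in all other libraries. The differences were -5.48 against iWAT, -5.93 against GM and -4.98 against hypothalamus (adjusted p at most 3.51e-13, limma). Of the 5 listed genes of ketone synthesis 2 were enriched, a list too short to weigh against 4.28% of all tested genes, among them *Bdh1*, which makes and uses hydroxybutyrate, while *Acat1* and *Slc16a1* were not.

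Of 20 fatty acid oxidation genes 4 were enriched, against 4.28% of all tested genes, with median differences of 0.03 from iWAT, 0.95 from GM and 2.70 from hypothalamus. *Cpt1a*, the liver form of the carrier that admits fatty acids to mitochondria, stood at 58.3, 64.5 and 69.9 FPKM in liver and at 9.03 to 19.0 in iWAT, and was called. *Acadm*, a step of the mitochondrial cycle itself, stood at 142, 119.9 and 114.4 FPKM in liver, below 224.9 to 318.8 in iWAT (-1.05 ± 0.133, adjusted p = 1.46e-05, limma). Most of that difference depends on scaling. The other enriched members were *Acaa1b*, *Acot12* and *Cyp4a10*.

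Enzymes that modify foreign compounds were largely enriched. Of 31 tested cytochrome P450 genes and their partner, 28 were, with median differences of 7.28, 6.89 and 7.32, and of 26 conjugation enzymes 16 were, with 4.44, 4.68 and 4.92. Over all tested genes 4.28% were enriched. *Cyp3a11* reached 1742, 1429 and 1296 FPKM and *Cyp1a2* 392.4, 332.7 and 384.9, with at most 7.89 and 1.74 in any other library. *Cyp2e1*, which oxidises ethanol and acetone, was not enriched: the livers held 2467, 2575 and 2441 FPKM and iWAT 813.1, 1266 and 2091. *Por*, which passes electrons to P450 enzymes, was lower in liver (42.8 to 71.3 FPKM) than in iWAT (161.4 to 183.2), by -1.57 ± 0.155 (adjusted p = 1.51e-06, limma). *Cyp4b1* was also higher in iWAT, with means of 26.5 against 8.62 FPKM. Members of the *Cyp2c*, *Cyp2d* and *Ugt2b* families and of the overlapping *Ugt1a* genes are near copies, so their single levels are uncertain.

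Bile acid genes were enriched in 18 of 20 cases, against 4.28% of all tested genes, with median differences of 5.88, 5.84 and 5.53. *Cyp7a1*, the rate-limiting enzyme of the classic pathway, was a low gene at 12.4, 10.5 and 11.1 FPKM in liver, listed at 0 in all libraries of iWAT and hypothalamus, and *Cyp8b1*, which sets the kind of bile acid made, stood at 220.2, 158.8 and 188.4. The transporters that take bile acids up from blood and export them to bile, *Slc10a1* (278.6 to 295.6 FPKM) and *Abcb11* (145.5 to 162.9), reached at most 1.18 and 0.753 FPKM elsewhere. *Abcb4*, which flips phosphatidylcholine into bile, stood apart. It held 48.4, 47.0 and 44.5 FPKM in liver and 42.5, 39.0 and 41.9 in GM, a difference of 0.18 ± 0.077 (adjusted p = 0.0571, limma), against at most 1.19 FPKM in iWAT and hypothalamus.

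**Figure D4:**
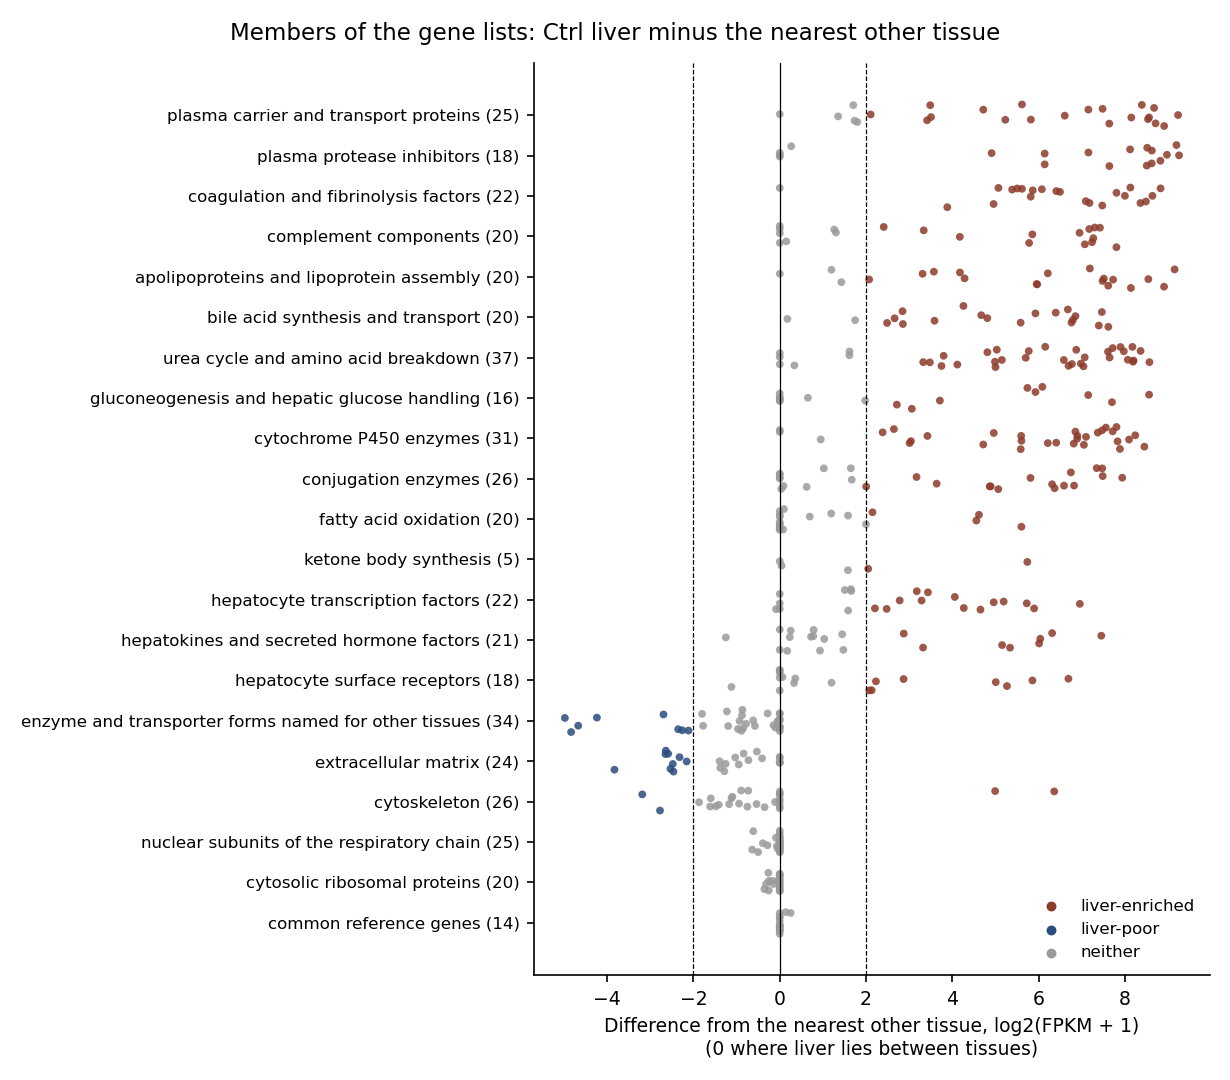
Difference between Ctrl liver and the nearest other tissue on the log2(FPKM + 1) scale for each tested member of the lists (number in brackets), with 0 where liver lies between tissues and dashed lines at the limits of 2 and -2. Members of the lists of liver function lie mostly on the right, with many fatty acid oxidation genes at or near 0, and the matrix genes and forms named for other tissues lie on the left.

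Of 22 transcription factors of hepatocytes 14 were enriched, against 4.28% of all tested genes (median differences 3.14, 3.46 and 3.36). *Hnf4a* stood at 153.2, 195.5 and 166.7 FPKM in liver and at no more than 0.737 elsewhere. *Foxa2* held 11.7, 13.8 and 12.7 FPKM. The nuclear receptors *Nr1i3* (72.2 to 74.6 FPKM), which senses foreign compounds, and *Nr0b2* (37.0 to 42.1), a repressor induced by bile acids, were enriched too. *Cebpa*, shared with the adipocyte lineage, was lower in liver (112.5 to 136.8 FPKM) than in iWAT (322.4 to 493.9), by -1.74 on the log2 scale (adjusted p = 5.91e-05, limma), and well above GM and hypothalamus in both.

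Of 21 tested hormone-like products of liver 8 were enriched, against 4.28% of all tested genes, with median differences of 1.60, 4.27 and 4.15. *Hamp*, hepcidin, which limits iron uptake, stood at 696.3, 366.5 and 369.8 FPKM, highest in Ctrl 1, and was listed at 0 in all iWAT libraries. *Igf1*, the mediator of growth hormone, overlapped between liver (43.2, 58.0 and 48.5 FPKM) and iWAT (34.7, 47.6 and 44.9), with a difference of 0.23 ± 0.131 (adjusted p = 0.124, limma). *Igf2* was at 0.0783 to 0.0999 FPKM in liver against 66.1 to 162.2 in hypothalamus. The stress hormones that the study follows in mice lacking *Crif1* were low at baseline: *Gdf15* stood at 2.73, 3.67 and 2.96 FPKM and *Fgf21* at 0.281, 1.65 and 0.588, which left *Fgf21* below the filter and untested. *Gdf15* was still higher in liver than in each other tissue, by 1.47, 1.81 and 1.92 (SE 0.153, adjusted p at most 2.39e-06, limma), short of the limit of 2.

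Receptors were enriched in 8 of 18 cases, against 4.28% of all tested genes, with median differences of 0.88, 2.85 and 2.87. *Asgr1*, which clears plasma glycoproteins, stood at 368.6, 370.1 and 353.2 FPKM in liver and at most 9.33 elsewhere. *Gcgr*, the glucagon receptor, stood at 156.7, 161.2 and 154.4 FPKM in liver and at most 0.799 elsewhere. *Ghr*, the growth hormone receptor, was lower in liver (166.6 to 182.3 FPKM) than in iWAT (423.2 to 524.8), and *Klb*, the co-receptor for FGF21, likewise (6.50 to 8.82 against 20.7 to 30.7 FPKM). *Fgfr4* (16.1 to 17.1 FPKM), the receptor for the gut hormone FGF15, was enriched. *Insr* stood at 9.84 to 12.1 FPKM in liver, 14.3 to 15.1 in iWAT, 10.6 to 11.2 in GM and 5.85 to 6.23 in hypothalamus. *Igf1r* was at 0.130 to 0.272 FPKM in liver and at 1.55 or more in all others.

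Genes could also be high in liver and 1 other tissue, each 4-fold above the other two. There were 177 such genes with iWAT (1.16% of those tested), 23 with GM (0.15%) and 92 with hypothalamus (0.601%). Of these, 33, 10 and 20 were also liver-enriched, so that liver exceeded the sharing tissue by 4-fold as well. The other leading genes shared with iWAT, after *Pck1*, *Hp* and *Cyp2e1*, were *Ces1f*, a carboxylesterase, at 293.6 to 353 FPKM in liver and 139.1 to 168.2 in iWAT, and *Orm1*, an acute phase protein, at 504.6 to 674.5 and 132.3 to 226.8.

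With hypothalamus, liver shared *Itih3*, an inhibitor chain that binds hyaluronan (330.2, 370.7 and 356.4 FPKM in liver and 124.1, 134.1 and 155.2 in hypothalamus). *Ddc*, which makes dopamine and serotonin from their precursors, stood at 59.7, 53.0 and 52.4 FPKM in liver and 43.1, 34.4 and 31.4 in hypothalamus. *Abat*, which breaks down GABA, was lower in liver, at 88.4 to 106.8 against 117.1 to 169.4 FPKM, a direction that depends on scaling. *Sema4g* and the IGF carrier *Igfbp2* completed the leading 5, and *Igfbp2* was liver-enriched as well, with 307.1 to 418.1 FPKM in liver and 27.8, 46.5 and 78.5 in hypothalamus.

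With GM the leading genes were *Slc38a4*, an amino-acid transporter, at 258.1, 207.1 and 223.5 FPKM in liver and 66.1, 62.0 and 65.7 in GM, *Abcb4* as above, *Hfe2*, *Csrp3* and *Fitm1*. *Hfe2*, a co-receptor that drives hepcidin, stood at 42.4, 34.8 and 35.7 FPKM in liver and 346.6 to 393.7 in GM. *Csrp3*, a muscle LIM protein, stood at 17.3, 17.0 and 22.8 FPKM in liver and 72.1 to 112.5 in GM, and *Fitm1*, which acts in lipid droplet formation, at 11.3 to 15.3 and 216 to 220.7. Muscle fibre markers summed to at most 13.8 FPKM in a liver, and their part in these levels was not tested.

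The other genes called as shared with GM included 10 that were liver-enriched, among them *Apoa1*, *Serpina1e*, *Fgb*, *Gc* and *Ahsg*. Their level in GM followed the library. Over the 50 most abundant liver-enriched genes, the level in GM Ctrl 1 was a median of 0.443% of the liver mean (quartiles 0.379% and 0.515%), in GM Ctrl 3 0.366% (quartiles 0.322% and 0.423%), and in GM Ctrl 2 0.0336%. Hypothalamus Ctrl 3 held 0.0761% and the other two hypothalamus libraries at most 0.000846%, while iWAT held 0.0203% to 0.0361%. *Alb* stood at 0.411% of its liver mean in GM Ctrl 1 and at 0.0336% in GM Ctrl 2, and *Fabp1* at 0.436% and 0.0202%. The middle part of these genes thus held a narrow range of ratios within GM Ctrl 1 and within GM Ctrl 3, and lower ones in GM Ctrl 2. The full range was wide, from 0.0441% (*Mup17*) to 9.16% (*Phyh*) in GM Ctrl 1 and from 0.247% to 9.56% in GM Ctrl 3, and *Phyh*, *Gstp1* and *Scp2* stood at 8.78%, 5.36% and 3.31% in GM Ctrl 2 as well. These genes were named after their values were seen. The cause was not tested.

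**Figure D5:**
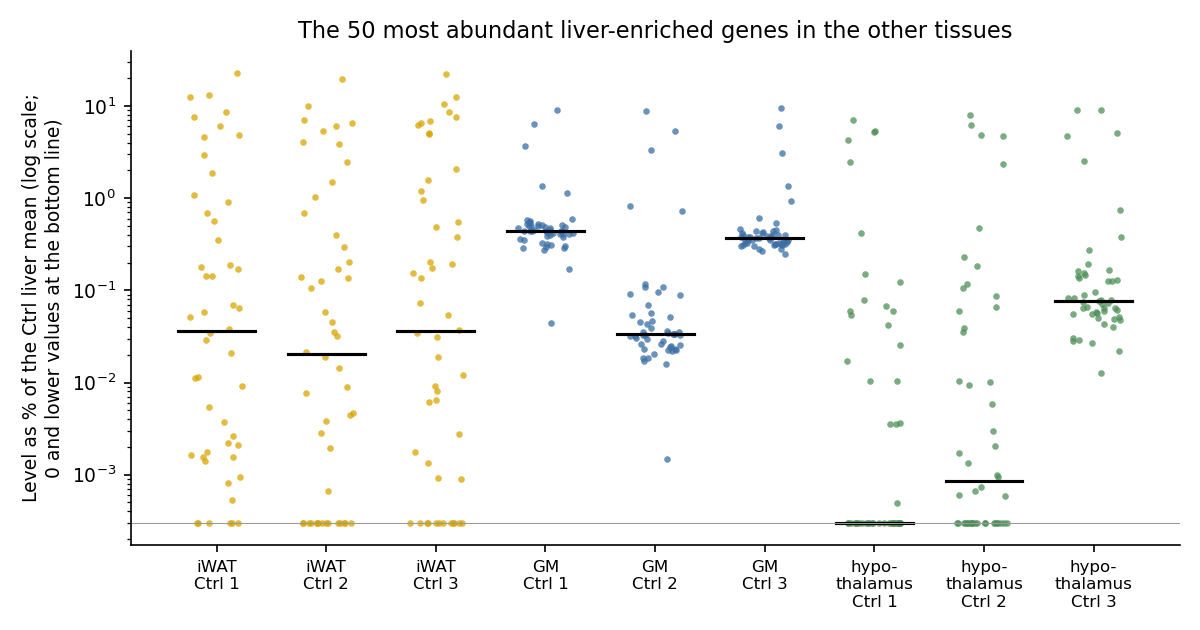
Level of the 50 most abundant liver-enriched genes in each of the 9 other Ctrl libraries as a percentage of their mean in the Ctrl livers, on a log axis, with 1 point per gene, the median as a line, and values of 0 or below the axis at the bottom. GM Ctrl 1 and GM Ctrl 3 show most genes in a band around medians of 0.443% and 0.366%, with a few genes up to 9.16% and 9.56%, GM Ctrl 2 one at 0.0336% and hypothalamus Ctrl 3 one at 0.0761%, whereas iWAT and the other two hypothalamus libraries are spread out.

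Without GM Ctrl 1, GM Ctrl 3 and hypothalamus Ctrl 3, a setting chosen after seeing the data, 657 genes were liver-enriched in place of 655 and 248 were liver-poor in place of 255, while the genes shared with GM fell to 12. Without GM Ctrl 2 alone they numbered 41, and without GM Ctrl 1 alone 15. The nearest tissue to liver also moved. It was GM for 292 of the 655 genes, iWAT for 201 and hypothalamus for 162 over all libraries, and GM for 123, iWAT for 310 and hypothalamus for 222 without those 3 libraries. The fold difference from GM became over 1.5 times larger for 139 of the 655 genes and smaller by as much for 1. The fold difference from hypothalamus became larger by as much for 18. Over the 15 liver function lists the median difference from GM moved by -0.10 to 1.09 on the log2 scale, most for the protease inhibitors, and that from hypothalamus by -0.06 to 0.19. Leaving out GM Ctrl 2 alone made the fold difference from GM over 1.5 times smaller for 52 genes. Without GM Ctrl 1 or GM Ctrl 3 alone it became larger by as much for 12 and 5.

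Among the liver-poor genes, *Ppp1r1a*, an inhibitor of protein phosphatase 1, was listed at 0 in all 3 livers and stood at 30.8 to 95.3 FPKM in the 9 other libraries. *Slc25a4*, the ADP/ATP carrier of muscle, stood at 5.07, 4.62 and 4.19 FPKM in liver against at least 191.2 elsewhere. *Gpx3*, which encodes the glutathione peroxidase of plasma, was at 2.25, 2.25 and 2.44 FPKM in liver and at 998.2 to 1110 in iWAT.

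*Aldoa*, a glycolytic aldolase, stood at 49.3 to 54.4 FPKM in liver and at 820.6 or more in every other library. Other leading liver-poor genes encode *Ldhb*, the heart form of lactate dehydrogenase (1.34 to 1.97 FPKM in liver and at least 50.9 elsewhere), *Cryab*, a small heat shock protein (2.06 to 2.73 and at least 60.9), *Cd63*, a tetraspanin of late endosomes (2.82 to 3.597 and at least 73), and *Igfbp5*, an IGF carrier (1.10 to 1.52 and at least 34.5). *Mbp*, myelin basic protein, was at 0.0640 to 0.189 FPKM in liver, 52.7 to 70.4 in iWAT, 26.5 to 30.8 in GM and 1711 to 1734 in hypothalamus. *Itm2a*, *Tppp3*, *Phlda3*, *Ly6c1*, *Sparcl1*, *Tspan3*, *Timp4* and *Aebp1* were also among the first 20, with liver means between 0.0191 and 2.27 FPKM.

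By list, 8 of 34 enzyme and transporter forms named for other tissues were liver-poor and none was enriched, with median differences of -2.38, -5.07 and -4.01, where 1.66% of all tested genes were liver-poor and 4.28% enriched. Of 24 matrix genes 9 were liver-poor, and 23 were lower than in iWAT, 17 than in GM and 9 than in hypothalamus, against 11.7%, 8.04% and 24.3% of all tested genes. Their median differences were -5.14, -2.43 and -1.27. *Col1a1*, a chain of type I collagen, stood at 0.845, 1.09 and 1.51 FPKM in liver and at 424.9, 967.5 and 693.4 in iWAT, and *Sparc*, a matrix-binding protein, at 8.78, 21.0 and 9.79 in liver and 843.4 to 1182 in iWAT. *Fn1*, fibronectin, which hepatocytes secrete to plasma, was an exception with means of 256.1 FPKM in liver and 283.0 in iWAT. Of 26 cytoskeletal genes, 16 were lower than in iWAT, 6 than in GM and 11 than in hypothalamus. Only 2 were liver-poor and 2 enriched, a small number to read against 1.66% and 4.28% of all tested genes: *Vim* and *Myl9* were liver-poor and the keratin genes *Krt8* (151.5, 108.3 and 124.7 FPKM in liver) and *Krt18* (131.4, 82.6 and 94.4) were enriched. *Vim* stood at 6.44 to 7.85 FPKM in liver and at 47.7 or more in all others.

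Housekeeping lists gave no call in either set, but they were too short to weigh against 4.28% enriched and 1.66% poor of all tested genes. None of 25 nuclear subunits of the respiratory chain was enriched or poor, with median differences of -0.50, -1.20 and 0.05, nor any of 20 cytosolic ribosomal proteins (-0.88, 0.01 and -0.47) or of 14 common reference genes. The means of *Gapdh* were 196.8 FPKM for liver, 157.0 for iWAT, 1808 for GM and 349.9 for hypothalamus, and those of *Actb* 230.9, 622.2, 123.9 and 412.8, so neither was level across these tissues. The liver function lists held 323 genes, of which 319 were tested and 222 were liver-enriched. The lists left 433 of the 655 liver-enriched genes unnamed.

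Among the 3 livers, genes with a mean of at least 10 FPKM (4163) had a median range of 0.17 on the log2 scale, and 52 had a range of at least 1. The median range was 0.22 for the 593 liver-enriched genes among them, of which 14 had a range of at least 1. The widest ranges belonged to genes with near copies. *Rps27* stood at 1.54, 1.71 and 259.9 FPKM and *Rps27rt*, listed on the same strand over almost the same span (chr3:90212667-90213648, mm10), at 291.9, 265.4 and 2.83, but their sum was 293.4, 267.1 and 262.7, a range of 0.16. *Hba-a2* and *Hba-a1*, adjacent copies of alpha globin that were listed over overlapping spans, ranged by 7.06 and 4.90, and their sum, at 88.1, 90.1 and 161.7 FPKM, by 0.87. *Gm21320*, within the run of *Mup* genes, stood at 369.5, 32.3 and 25.98 FPKM, and *Mup7* at 6768, 6610 and 12014. Ctrl 3 was also highest of the livers for *Mup1* (2001, 1980 and 3305 FPKM) and *Mup17* (4179, 4235 and 5504), while *Mup3* varied little (9787, 10273 and 10096).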

How the data were processed

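Gene-level tables of bulk RNA-seq of 4 tissues (total RNA, TruSeq RNA kit v2, paired-end reads, HiSeq4000) were used for the 12 Ctrl libraries. The authors deposited FPKM values for each gene and library, which gave all levels and tests. The deposited TPM values of the same libraries served as an alternative, and the deposited coverage column served only to infer depth. No counts were used, so counting error cannot be given. The submitters' processing notes name FastQC 0.11.5, Trimmomatic 0.32, HISAT2 2.0.5, Bowtie2 2.2.6, STAR 2.5.2b, StringTie 1.3.3b and mm10, and which of the aligners made these values is not given in the sources used here.

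A gene entered the fit when 3 or more of the 12 libraries reached 1 FPKM, and values were fitted on log2(FPKM + 1) with limma 3.58.1 (R 4.3.3), with 1 mean per tissue and p-values adjusted by the Benjamini-Hochberg method over all tested genes of each comparison. On this scale the change of a low gene is understated. The fit was tested on simulated data with known changes. Tables and figures were made with Python 3.11.15 (matplotlib 3.10.9, scipy 1.17.1, pandas 2.3.3, numpy 2.4.6). Named genes were the 10 highest in liver, the 20 liver-enriched and 20 liver-poor genes with the largest smallest difference, the 5 leading genes shared with each tissue, the 5 with the widest range among livers, *Gadd45gip1* and members of the gene lists. *Gm5424*, neighbours in chromosome runs and genes just outside the limits were added after their values were seen. The groups, lists and gene pairs were chosen with earlier results of these data known. Alternatives changed the pseudocount, filter, unit, scaling, fold limit, block and libraries. Mice lacking hepatic *Crif1* were not used. Some items are not reported here.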

Additional observations from a re-analysis of the deposited data

How the results depend on the processing

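The number of liver-enriched genes (655) was 756 with a pseudocount of 0.1, 530 with genes of mean at least 5 FPKM, 634 with TPM, 885 with median-ratio scaling and 775 with quantile normalization. It was 985 with a limit of 2-fold. The liver-poor genes (255) moved to 1023 with a pseudocount of 0.1, 537 with TPM, 152 with median-ratio scaling, 114 with quantile normalization and 1342 at 2-fold. With a pseudocount of 0.1, genes below iWAT numbered 3317, below GM 2241, shared with iWAT 281, with GM 83 and with hypothalamus 214. Median-ratio scaling gave 1076 below iWAT, 1632 above and 2319 below hypothalamus, and 50 shared with GM. Quantile normalization gave 982, 1673, 2028 and 52 for the same comparisons, and the smallest difference of *Apoe* went from 1.43 to -0.00. Genes below hypothalamus numbered 6067 with TPM and 2310 when a mean of 5 FPKM was required. At 2-fold, liver was above and below iWAT for 1294 and 4986 genes, GM for 2506 and 2939, and hypothalamus for 1722 and 7585, and shared genes numbered 499, 72 and 237. The causes were not tested.

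Leaving out 1 library at a time gave 15 to 41 genes shared with GM, 15 without GM Ctrl 1 and 41 without GM Ctrl 2. Without GM Ctrl 1, GM Ctrl 3 and hypothalamus Ctrl 3, chosen after seeing the data, they numbered 12. With a replicate block the liver-enriched genes were 655, genes above GM 1356 and below hypothalamus 3728, and no call count moved by over 1.5 times. Whether libraries of 1 number share a mouse is not stated, and the values do not settle it. Deviations of same-numbered libraries correlated at -0.119 to 0.242 over 18 pairs (median 0.080, 7 over 0.1), and those of other numbers at -0.177 to 0.089 over 36 (median -0.027). Between liver and iWAT each library correlated best with its own number (0.092 to 0.242, others -0.165 to -0.009), a hint from the data only, and between liver and hypothalamus 1 of 6 did. With 3 libraries per tissue an exact test cannot go below p = 0.1.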
